A study of Mus musculus with 8 samples.

Results

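The genes examined here encode 10 leukocyte integrin subunits, of 21938 protein-coding genes in the annotation: Itgb2, Itgal, Itgam, Itgax, Itgad, Itga4, Itgb7, Itgb1, Itgav and Itgb3. A peak was given to a gene when its centre lay in the gene body or within 20 kb of it in mm10, the build of the deposited coordinates. This gave 88 peaks of the 67673 in 4 lists. The data were ChIP-Seq peak lists for PU.1 and CEBPA from X18.1.1, a radiation-induced murine AML cell line with 1 Pu.1 allele deleted and the other mutated in the DNA-binding and PEST domains. The cells carried a puromycin-selected MSCV retrovirus, either empty (designated PU.1−) or encoding PuER, wild-type PU.1 fused to an oestrogen receptor domain that responds to 4-hydroxytamoxifen (OHT) (designated PU.1+). Each was a clonal line obtained by limiting dilution and kept for 2 h in 100 nM OHT, so that differences between the clones and effects of wild-type PU.1 cannot be told apart. Mutant PU.1 was still made in both lines, and on immunoblots the PU.1 antibody detected the mutant protein as well as PuER, so a PU.1 peak of PU.1+ can hold either protein. Each antibody and line had 1 library, and differences between the lines therefore carry no test. A peak was called shared when it overlapped a peak of the same antibody in the other line by at least 1 bp, and new when it was called in PU.1+ alone. The lists hold coordinates only, each peak 400 bp wide, so read depth and peak height are unknown, and a peak missing from a list does not show that the protein was absent from the site. Shares carry exact (Clopper-Pearson) 95% intervals, which cover counting error only.

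Integrins are heterodimers of an alpha and a beta subunit that carry cells across vessel walls and hold them to matrix and to other cells. Leukocytes are marked by the beta2 group, in which the common chain CD18 (Itgb2) pairs with CD11a (Itgal), CD11b (Itgam), CD11c (Itgax) or CD11d (Itgad). CD11b rises as myeloid cells mature and is a widely used surface marker of monocytes, macrophages and granulocytes, whereas CD11a is found on most leukocytes and CD11c marks dendritic cells and some macrophages. The alpha4 chain (Itga4) pairs with beta1 (Itgb1) or beta7 (Itgb7) in receptors for vascular and gut adhesion molecules. The alphav chain (Itgav) pairs with beta3 (Itgb3) and others in receptors for vitronectin and related matrix proteins. PU.1 binds purine-rich ETS motifs around a GGAA core, and CEBPA binds as a dimer to a palindromic motif.

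A selection of sequences follows, made after their values were seen: stretches with motif matches at PU.1 peaks of Itgb2, Itgam and Itga4, the genes with the most new PU.1 peaks, and at intronic sites of Itgb2 and Itgb3 in which peaks of all 4 lists overlapped. Other peaks of these genes also hold matches and are not shown, among them the new PU.1 peak in intron 1 of Itgb2 and CEBPA peaks without PU.1. The start of Itgal was added after its values were seen, because a new PU.1 peak lay there on a CEBPA peak present in both lines. All are read 5′ to 3′ on the plus strand of mm10. Intron labels give the intron that holds the peak centre, and a stretch so labelled can reach into a neighbouring exon. Capitals mark matches on either strand to GGAAGT (ETS), extended where the match was to GAGGAAGT (PU.1-type) or to CAGGAAGT or CCGGAAGT (ETS1-type), and to TTGCNNAA (CEBP). On this strand a PU.1-type match on the minus strand reads as ACTTCCTC. Where transcripts are annotated as untranslated sequence, only the matches and a few neighbouring bases are shown.
Itgax intron 8, CEBP match (chr7:128133796-128133815): cattcgTTATGCAAttgggg
Itgax intron 8, first and second PU.1-type matches (chr7:128133837-128133865): caccACTTCCTCctgtaACTTCCTCttga
Itgax intron 8, last PU.1-type match (chr7:128133864-128133883): gaagcaACTTCCTCtaaagg
Itgam intron 2 (chr7:128065745-128065864): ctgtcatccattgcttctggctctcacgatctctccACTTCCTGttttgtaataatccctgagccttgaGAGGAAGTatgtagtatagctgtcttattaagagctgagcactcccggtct
Itgam intron 12 (chr7:128089295-128089414): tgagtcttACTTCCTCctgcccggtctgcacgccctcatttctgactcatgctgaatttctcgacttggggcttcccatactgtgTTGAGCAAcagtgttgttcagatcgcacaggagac
Itgb2, upstream of the gene (chr10:77522125-77522244): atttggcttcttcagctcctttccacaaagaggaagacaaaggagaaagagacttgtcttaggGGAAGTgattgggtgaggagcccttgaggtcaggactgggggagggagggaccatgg
Itgb2 start, PU.1-type match (chr10:77530296-77530315): cactcaACTTCCTCctgggc
Itgb2 start, ETS1-type match (chr10:77530322-77530341): ttagaaCAGGAAGTgtcagg
Itgb2 intron 6 (chr10:77548737-77548856): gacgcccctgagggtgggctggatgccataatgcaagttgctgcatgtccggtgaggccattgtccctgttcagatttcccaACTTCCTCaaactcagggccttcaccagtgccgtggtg
Itgb2 intron 8, in all 4 lists (chr10:77551018-77551137): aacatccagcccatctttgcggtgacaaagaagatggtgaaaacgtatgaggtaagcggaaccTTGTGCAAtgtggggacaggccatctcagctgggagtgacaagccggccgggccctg
Itga4, before the gene start (chr2:79254794-79254913): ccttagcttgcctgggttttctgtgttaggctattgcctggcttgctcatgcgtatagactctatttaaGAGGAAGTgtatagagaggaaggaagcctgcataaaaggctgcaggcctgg
Itga4 intron 2 (chr2:79257102-79257221): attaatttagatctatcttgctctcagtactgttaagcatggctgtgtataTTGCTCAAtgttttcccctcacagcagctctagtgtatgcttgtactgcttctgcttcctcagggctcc
Itgal start (chr7:127296238-127296257): gcttatACTTCCTCtctgaa
Itgb3 intron 1, outside the PU.1 peak of PU.1+ (chr11:104609394-104609513): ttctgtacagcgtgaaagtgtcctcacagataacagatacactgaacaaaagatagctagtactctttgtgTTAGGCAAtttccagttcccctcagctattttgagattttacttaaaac
Itgb3 intron 10, in all 4 lists (chr11:104647616-104647735): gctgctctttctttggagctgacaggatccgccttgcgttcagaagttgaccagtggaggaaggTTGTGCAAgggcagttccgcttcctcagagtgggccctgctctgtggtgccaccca

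Across the 10 genes the PU.1 list grew between the lines and the CEBPA list shrank a little. The PU.1 antibody gave 10 peaks for PU.1− against 22 for PU.1+: 6 sites were shared, 4 were called in PU.1− alone and 16 were new. The CEBPA antibody gave 30 against 26, with 21 shared, 9 called in PU.1− alone and 5 new. The windows covered 841.7 kb, so that PU.1 peaks of PU.1+ lay at 26.1 per Mb, against 8.47 per Mb over the windows of all protein-coding genes and 5.75 per Mb over the genome. CEBPA peaks of PU.1+ lay at 30.9 per Mb against 11.4 per Mb over those windows. In PU.1− the PU.1 peaks lay at 11.9 per Mb against 3.02, and the CEBPA peaks at 35.6 against 14.5. The density of peaks was thus higher at the integrin genes in every list, by counts without replicate error. From PU.1− to PU.1+ the whole lists went from 5288 to 15683 PU.1 peaks and from 26119 to 20583 CEBPA peaks. The PU.1 density was thus already higher at these genes in PU.1−.

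The share of PU.1+ peaks that were new was close to that of the lists as a whole. New peaks made up 72.7% (95% interval 49.8 to 89.3%) of the 22 PU.1 peaks, against 81.1% of all PU.1 peaks of PU.1+. For CEBPA the share was 19.2% (6.55 to 39.4%) of 26 peaks against 12.1%. The peaks called in PU.1− alone made up 40.0% (12.2 to 73.8%) of the 10 PU.1 peaks against 43.8% of the list, and were 9 of the 30 CEBPA peaks (14.7 to 49.4%) against 30.7%. Each interval includes the value of the whole list.

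Counted by gene, a PU.1 peak was found at 6 of the 10 integrin genes in PU.1− and at 9 in PU.1+, against 23.7% and 41.4% of all protein-coding genes. New PU.1 peaks lay at 8 of the 10, all but Itgb1 and Itgb3, against 36.7% of all protein-coding genes and 42.8% of those with a length in the range of the integrin genes. Shared PU.1 peaks lay at 4 genes, Itgb2, Itgb7, Itgav and Itgb3 (13.4% of all genes), and peaks called in PU.1− alone at 2, Itgal and Itgad (13.7%). CEBPA peaks were found at 7 genes in PU.1− (56.5% of all genes) and 9 in PU.1+ (51.3%). Among genes with a length in the range of the integrin genes these shares were 64.5% and 58.5%, so the count in PU.1− is near that background. New CEBPA peaks lay at 4, Itgam, Itgax, Itgb2 and Itgb1 (11.4%), and CEBPA peaks called in PU.1− alone at 5, Itgal, Itgb2, Itga4, Itgb7 and Itgb3 (30.1%). Itgam, Itgax and Itgb2, the chains of the CD11b and CD11c receptors, were the 3 genes with new peaks of both factors, which 8.23% of protein-coding genes had. Because Itgam and Itgax share 1 such site, these 3 genes are not 3 separate cases.

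**Figure D1:**
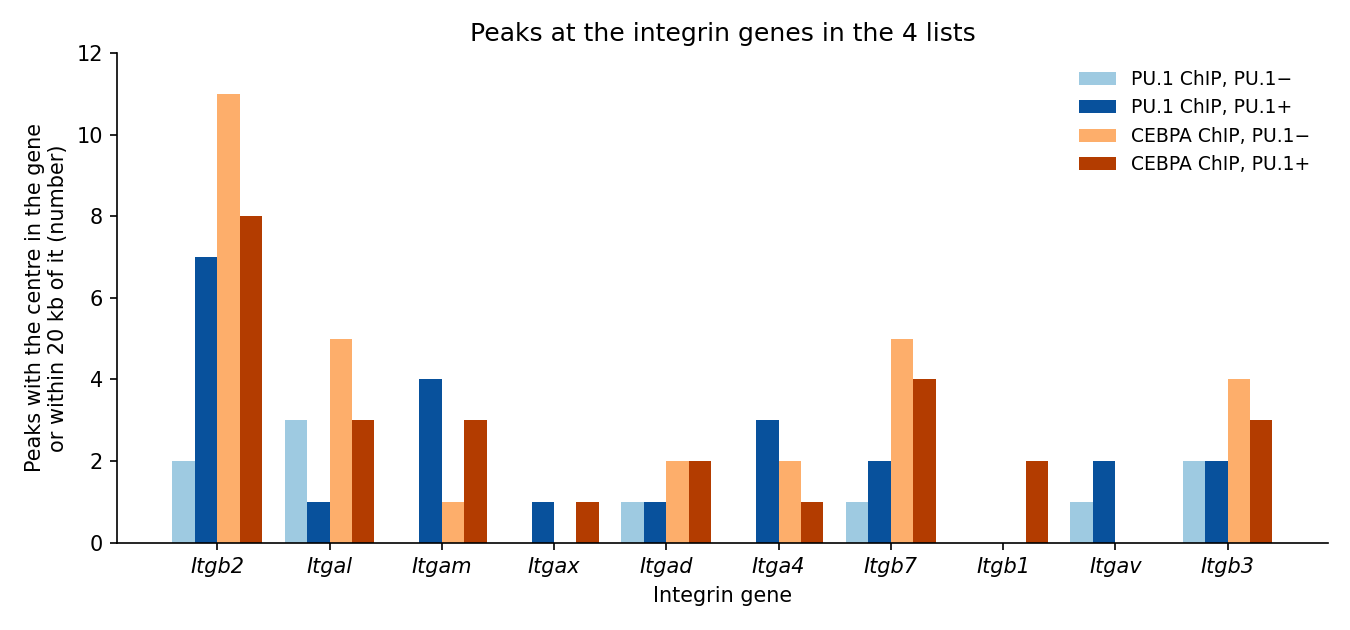
Number of peaks (vertical axis) at each integrin gene (horizontal axis) in the PU.1 and CEBPA lists of PU.1− and PU.1+, with 1 library behind each bar and no error bars. Itgb2 had the most peaks, 28 over the 4 lists, and Itgam and Itga4 went from 0 PU.1 peaks in PU.1− to 4 and 3 in PU.1+.

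The genes differed in how many new PU.1 peaks they had. Itgb2 had 5, and 1.75% of protein-coding genes had at least as many. Itgam had 4 (3.27% of genes with as many) and Itga4 had 3 (6.8%), whereas Itgal, Itgax, Itgad, Itgb7 and Itgav had 1 each. The median over the 10 genes was 1 peak, against 0 over all protein-coding genes. The number of PU.1 peaks was higher in PU.1+ than in PU.1− at 6 genes (32.5% of all genes) and lower at 1, Itgal (6.21%). For CEBPA it was higher in PU.1+ at 3 genes, Itgam, Itgax and Itgb1 (6.72%), and lower at 5 (26.7%). By family, the 5 genes of the beta2 group held 11 of the 16 new PU.1 peaks, and their PU.1 peaks numbered 16.9 per Mb of window in PU.1− and 36.6 in PU.1+. Itga4, Itgb1 and Itgb7 together held 4, with 3.83 and 19.1 per Mb. Itgav and Itgb3 held 1, with 13.3 per Mb in PU.1− and 17.8 in PU.1+.

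**Figure D2:**
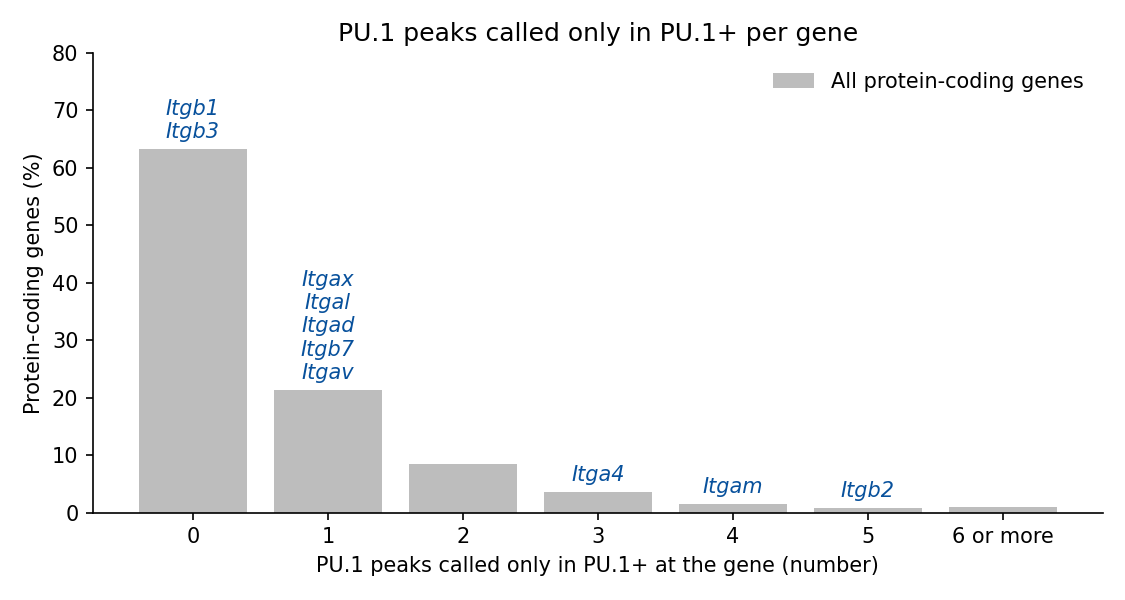
Percentage of the 21938 protein-coding genes (vertical axis) with each number of new PU.1 peaks (horizontal axis), with the integrin genes written above the bar they belong to. Itgam and Itgb2 stand over bars of 1.51% and 0.734% of genes, and Itgb1 and Itgb3 over the 63.3% with none.

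CD18, encoded by Itgb2 (chr10:77530252-77565708, plus strand), is needed by every receptor of the beta2 group, and its gene had the densest set of peaks. From PU.1− to PU.1+ its PU.1 peaks went from 2 to 7 and its CEBPA peaks from 11 to 8. Both PU.1 peaks of PU.1− were also called in PU.1+. The first lay at the gene start, with its centre 82 bp inside the annotated gene in PU.1+ (chr10:77530135-77530534) and 95 bp in PU.1−, in exon 1. It held the PU.1-type match and the ETS1-type match printed above, and in PU.1+ the ETS1-type match lay 3 bp from its centre. On this site a CEBPA peak was called in PU.1+ alone, with its centre 33 bp from that of PU.1 and no CEBP match anywhere in its 400 bp, while the PU.1-type match lay 4 bp from its centre. At the start of Itgb2, therefore, PU.1 was called in both lines and CEBPA in PU.1+ only.

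Inside Itgb2 the new PU.1 peaks fell in intron 1 (6.74 kb from the start), intron 3 (14.89 kb) and intron 6 (18.54 kb). Those in introns 3 and 6 lay on CEBPA peaks that both lines had, with centres 66 bp and 13 bp from the CEBPA peak of PU.1+. The intron 6 peak held a PU.1-type match 26 bp from its centre, which also lay 13 bp from the centre of the CEBPA peak. The intron 8 site, 20.9 kb from the start, was in all 4 lists. Its CEBP match lay at the very centre of the CEBPA peak of PU.1+ (0 bp) and 1 bp from that of PU.1−. The PU.1 centre was 7 bp from this match in PU.1− and 65 bp in PU.1+, and in neither line did the middle 80 bp of the PU.1 call hold an ETS match. The remaining new PU.1 peaks, at −8.07 kb (with an ETS match 6 bp from its centre) and at −10.86 kb, were nearer to the neighbouring gene Fam207a than to Itgb2, and the latter overlapped a CEBPA peak called in PU.1− alone. CEBPA peaks called in PU.1− alone also lay 1.14 and 7.75 kb into intron 1 and at the start of the neighbour Pttg1ip (−92 bp).

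CD11b, encoded by Itgam (chr7:128062640-128118491), CD11c, encoded by Itgax (chr7:128129547-128150657), and CD11d, encoded by Itgad (chr7:128154376-128223816), form a cluster of 161.2 kb on the plus strand. Over the cluster and its flanks PU.1 was called at 1 site in PU.1− and at 5 in PU.1+, none of them shared. No list held a peak within 1000 bp of a start of any of the 3 genes. The new PU.1 peaks instead lay at −13.64 kb from the start of Itgam, in its introns 2 and 12, in Itgax and in intron 5 of Itgad.

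From PU.1− to PU.1+ the PU.1 peaks of Itgam went from 0 to 4 and its CEBPA peaks from 1 to 3. The gene model Gm49368 overlaps it, so that the intronic peaks belong to both. The intron 2 peak, 3.16 kb from the start, held a PU.1-type and an ETS1-type match within 20 bp of its centre and met no CEBPA peak. The intron 12 peak, 26.71 kb from the start, lay on the single CEBPA peak that the lines shared at this gene, with centres 11 bp apart in PU.1+. Here the PU.1-type match lay 48 bp and the CEBP match 29 bp from the PU.1 centre. The upstream flank gained both factors at separate sites, PU.1 at −13.64 kb and CEBPA at −11.67 kb.

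The fourth PU.1 peak counted for Itgam was the only 1 of Itgax, since it lay in the windows of both genes (chr7:128133678-128134077). It was 4.33 kb inside Itgax, in intron 8 of the transcript with the longest coding sequence, in bases that another transcript carries as untranslated exon. A new CEBPA peak overlapped it (chr7:128133618-128134017), with centres 60 bp apart, and neither factor had a peak at Itgax in PU.1−. It was the only integrin site where a new PU.1 peak met a new CEBPA peak. The PU.1 peak held 3 PU.1-type matches within its central 80 bp, the nearest 4 bp from its centre. Having 3 such matches is true of 4 of all 15683 PU.1 peaks of PU.1+ (0.0255%). That criterion was taken from this peak and was not a planned measure. The CEBPA peak held a CEBP match 12 bp from its own centre.

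Itgad had 1 PU.1 peak in each line, at different places. That of PU.1+ lay in intron 5, 25.91 kb from the start, with an ETS match 21 bp from its centre. That of PU.1− lay beyond the gene, at −97 bp from the start of 9130023H24Rik, and 2 CEBPA peaks shared by the lines lay at that neighbour too. The neighbour Cox6a2 lies within the body of Itgad.

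CD11a, encoded by Itgal (chr7:127296260-127335138, plus strand), lies 727.5 kb before the cluster and was the gene with fewer PU.1 peaks in PU.1+ than in PU.1−, 1 against 3. The single peak of PU.1+ was at the gene start, with its centre 16 bp inside the annotated gene (chr7:127296077-127296476). It lay 5 bp from the centre of a CEBPA peak that both lines had, and held 1 PU.1-type match 29 bp from its centre and no CEBP match. Of the peaks of PU.1−, 1 lay in intron 15 on a CEBPA peak that was likewise called in PU.1− alone, with centres 30 bp apart. The other 2 lay downstream, at −100 and −5372 bp from the start of the neighbour Zfp768, and the farther of them lay on a CEBPA peak of both lines. Having 3 PU.1 peaks called in PU.1− alone was rare, seen at 57 protein-coding genes (0.26%), but only 1 of the 3 was in Itgal itself. The shared CEBPA peak in intron 13, 14.6 kb from the start, held a CEBP match 4 bp from its centre in PU.1− and 15 bp in PU.1+.

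**Figure D3:**
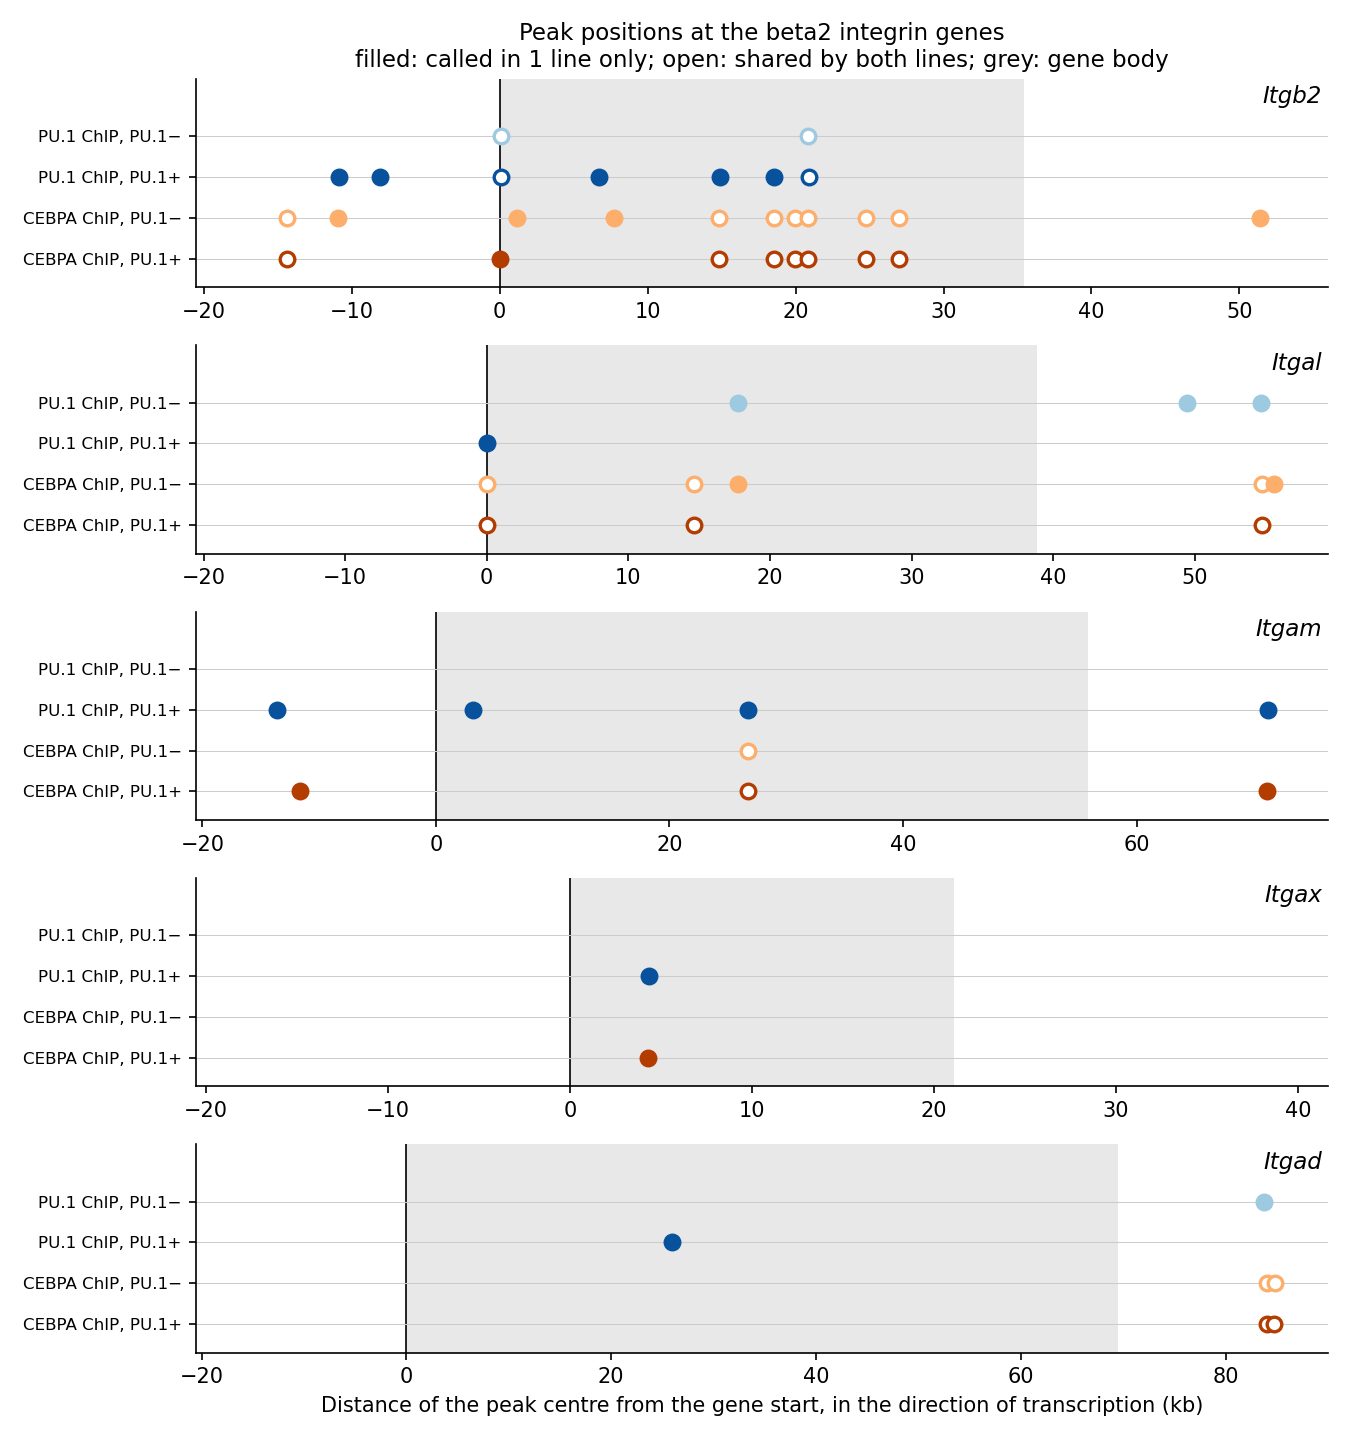
Distance of each peak centre from the start of its gene in kb (horizontal axis) in the 4 lists (rows) for Itgb2, Itgal, Itgam, Itgax and Itgad, with filled circles for peaks called in 1 line, open circles for shared peaks and grey for the gene body. PU.1 and CEBPA circles fall on the same position at the start of Itgal in PU.1+ and in intron 12 of Itgam, and the rightmost circles of Itgam, at 71.24 kb for PU.1 and 71.18 kb for CEBPA, are those at 4.33 and 4.27 kb in Itgax.

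The alpha4 chain, encoded by Itga4 (chr2:79255426-79333123, plus strand), gained 3 PU.1 peaks in PU.1+, all within 2 kb of the gene start, from none in PU.1−. They lay at −1950 and −573 bp from the start and, in intron 2, at 1735 bp. The peak at −573 bp held a PU.1-type match 13 bp from its centre. The intron 2 peak held the GGAA core but no ETS match (GGAAGT) in its 400 bp. A CEBP match lay 5 bp from its centre, and it overlapped a CEBPA peak of both lines. The centre of that CEBPA peak was 73 bp away in PU.1+. A second CEBPA peak, in intron 21 (61.2 kb), was called in PU.1− alone.

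The beta7 chain, encoded by Itgb7 (chr15:102215995-102231944, minus strand), had 1 PU.1 peak in the PU.1− list and 2 in the other. The shared peak was in intron 2, with centres 110 bp apart, and a PU.1-type match lay 44 bp from the centre in PU.1+ and 154 bp in PU.1−. The new peak lay at −370 bp from the start and held the GGAA core but no ETS match in its 400 bp. The CEBPA lists of PU.1− and PU.1+ held 5 and 4 peaks at Itgb7, but 4 and 3 of these lay nearer to Csad and Rarg, which encode a taurine-synthesis enzyme and a retinoic acid receptor. The CEBPA peak of Itgb7 itself lay at −1012 bp from its start in PU.1− and at −993 bp in PU.1+.

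The beta1 chain, encoded by Itgb1 (chr8:128685654-128733200, plus strand), pairs with the largest number of alpha chains and is expressed by most cells. It was the only gene of the 10 with no PU.1 peak in either line. Its 2 CEBPA peaks were both new, at −276 bp from the start and in intron 14 (39.49 kb), and neither held a CEBP match within its central 80 bp. Having 2 or more new CEBPA peaks was seen at 1.65% of protein-coding genes, here at Itgb1 and Itgam. Of the 2 counted for Itgam, the one 71.18 kb from its start lies in Itgax, within the overlap of the windows of both genes.

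The alphav chain, encoded by Itgav (chr2:83724397-83806916, plus strand), was the only gene of the 10 with no CEBPA peak in either line. Its PU.1 peak at the start was shared, centred at −55 bp from the gene start in PU.1− and at −14 bp in PU.1+. In PU.1− an ETS match lay 3 bp from the centre, and in PU.1+ the nearest was a PU.1-type match 8 bp away. A new PU.1 peak lay 5.18 kb into intron 1, with an ETS match 22 bp from its centre.

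The beta3 chain, encoded by Itgb3 (chr11:104608000-104670476, plus strand), had 2 PU.1 peaks in each line and no new one. Both sites were in introns, where peaks of all 4 lists overlapped. In intron 1 the PU.1 peaks of the lines overlapped by only 9 bp, with centres 391 bp apart, so that their call as shared rests on the 1 bp rule. The CEBP match printed above for intron 1 lay in the other 3 peaks and outside the PU.1 peak of PU.1+. In intron 10, 39.67 kb from the start, the PU.1 and CEBPA peaks of PU.1+ had the same coordinates (chr11:104647476-104647875) and a CEBP match lay 8 bp from their centre. Each of the PU.1 peaks of Itgb3 held the GGAA core in its 400 bp, but none held an ETS match there. A shared CEBPA peak lay before the start, at −709 bp in PU.1− and −807 bp in PU.1+.

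**Figure D4:**
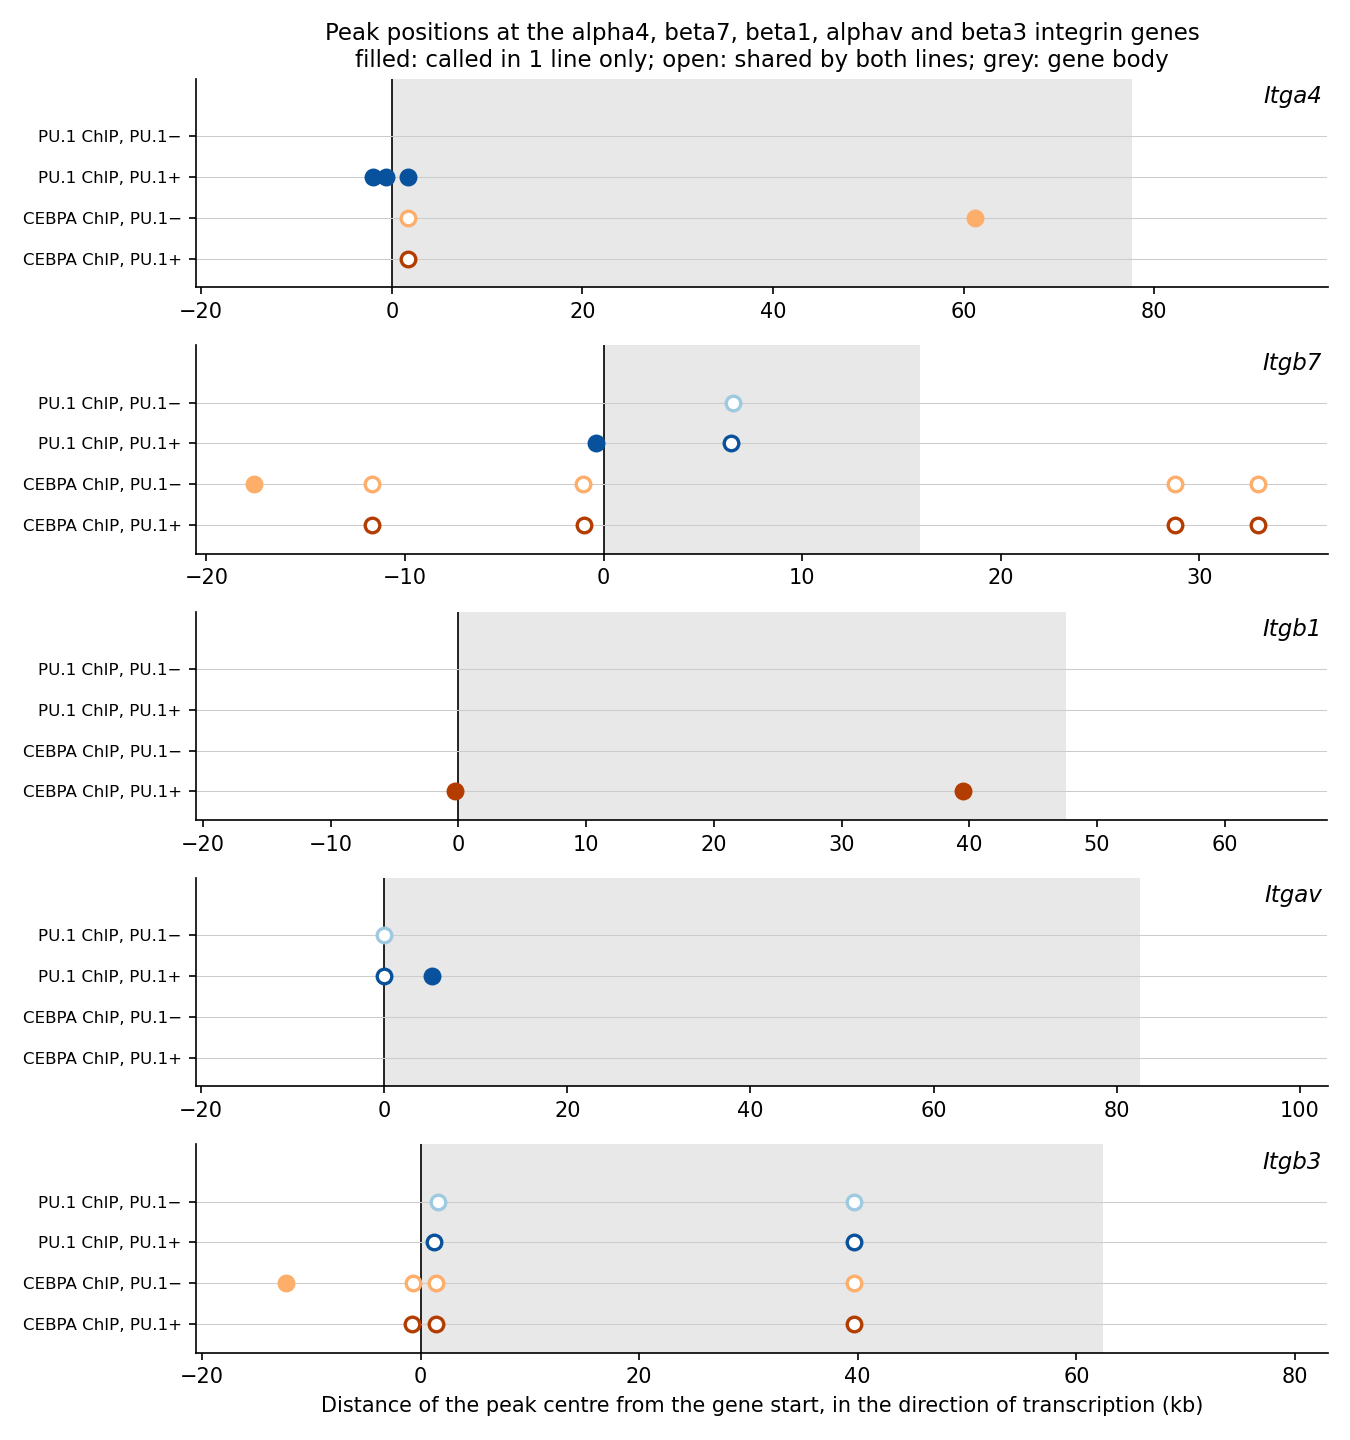
Distance of each peak centre from the start of its gene in kb (horizontal axis) in the 4 lists (rows) for Itga4, Itgb7, Itgb1, Itgav and Itgb3, drawn as for the beta2 group. The 3 new PU.1 peaks of Itga4 lie around its start, the PU.1 rows of Itgb1 are empty, and Itgb3 has open circles in both PU.1 rows.

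At the starts of the genes themselves, PU.1 peaks within 1000 bp were found for 2 integrin genes in PU.1− (Itgb2 and Itgav) and for 5 in PU.1+ (with Itgal, Itga4 and Itgb7 added), against 6.32% and 6.83% of all protein-coding genes. CEBPA peaks at starts were found for Itgal and Itgb3 in PU.1− and, in PU.1+, also for Itgb2, Itgb1 and Itgb7, against 17.3% and 14.4%. The addition of Itgb7 reflects a move of 19 bp across the 1000 bp limit. In the RefSeq promoter table for this build, which covers 250 bp before to 50 bp after a start, 6 of the 10 genes were matched. An ETS match was found in the promoters of Itgax, Itgb7 and Itgav, against 23.8% of 32851 promoters, and a PU.1-type match in those of Itgb7 and Itgav, against 3.2%. Of these 6 promoters, PU.1 peaks of PU.1+ overlapped those of Itgb7 and Itgav, and that of Itgav was also overlapped in PU.1−. The peak at the Itgb7 promoter held no ETS match, so the PU.1-type match of that promoter lay outside it. A CEBPA peak of PU.1+ overlapped the promoter of Itgb1.

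Many of the peaks in the windows sat at neighbouring genes. Of the 88 peaks, 24 were nearest to the body of another protein-coding gene, and 12 of these lay within 1000 bp of its start. The classes are small, and no share over other genes is given beside them. Of the 16 new PU.1 peaks 14 were nearest to an integrin gene, and of the 5 new CEBPA peaks all 5 were. Of the shared peaks of PU.1+, 6 of 6 for PU.1 and 14 of 21 for CEBPA were nearest to an integrin gene. Of the 4 PU.1 peaks called in PU.1− alone 3 were nearest to another gene, and so were 5 of the 9 CEBPA peaks called in PU.1− alone. Of the new PU.1 peaks, 10 lay in the body of an integrin gene and 6 upstream, with the Itgax peak, which lies downstream of Itgam, counted in the body of Itgax.

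Overlapping peaks of the 4 lists formed 47 sites, of which 20 were in 1 list, 16 in 2, 8 in 3 and 3 in all 4. The most frequent patterns were CEBPA in both lines without PU.1 (11 sites), PU.1 in PU.1+ alone (9), CEBPA in PU.1− alone (7) and PU.1 in PU.1+ joining CEBPA of both lines (5). New PU.1 peaks overlapped a CEBPA peak of PU.1+ in 6 of 16 cases (37.5%, 15.2 to 64.6%), against 23.2% of all new PU.1 peaks. In 5 of these 6, at Itgal, Itgam and Itga4 and in introns 3 and 6 of Itgb2, the CEBPA peak was also called in PU.1−, and the remaining peak was the Itgax site. Among all PU.1 peaks of PU.1+ at the integrin genes, 10 of 22 (45.5%, 24.4 to 67.8%) overlapped a CEBPA peak, against 29.8% of the list. The centres of such pairs were 46.5 bp apart in the median, against 52.0 bp over the list. For PU.1−, 6 of 10 such peaks (60.0%, 26.2 to 87.8%) met a CEBPA peak of the same line, against 57.6% of the list.

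ETS matches were about as common as in the whole list. In the central 80 bp, 10 of 22 PU.1 peaks of PU.1+ held GGAAGT (45.5%, 24.4 to 67.8%), against 43.5% of all PU.1 peaks of PU.1+ and 4.44% of windows 2000 bp to either side. The GGAA core alone was in 21 of 22 (95.5%, 77.2 to 99.9%), against 91.1%. The PU.1-type form was in 7 of 22 (31.8%, 13.9 to 54.9%), against 15.2%, an interval that includes the list's value. In the central 200 bp, a length chosen for this motif after the data were seen, it was in 10 of 22 (45.5%, 24.4 to 67.8%), against 20.2%, and in the whole peak also in 10, against 21.8%, and both of these intervals lie above the list's value. In PU.1− it was in 0 of 10 in the central 80 bp (up to 30.8%), against 7.38% of that list, but in 2 of 10 in the central 200 bp and in 3 of 10 in the whole peak (6.67 to 65.2%), against 13.4%. The 3 matches lay 42, 49 and 154 bp from the centres of the shared peaks of Itgb2, Itgav and Itgb7, whose PU.1+ peaks hold the same matches nearer to their centres. The 7 of PU.1+ in the central 80 bp were the peaks at the starts of Itgb2, Itgal and Itgav, in Itgam intron 2, Itgb2 intron 6 and Itgax, and before Itga4. CEBP matches were in 8 of 26 CEBPA peaks of PU.1+ (30.8%, 14.3 to 51.8%), against 38.2%, and in 12 of 30 of PU.1− (40.0%, 22.7 to 59.4%), against 35.6%. The PU.1-type form was also found in 4 of the 26 CEBPA peaks of PU.1+ (15.4%, 4.36 to 34.9%), against 1.61% of that list, an interval that lies above the list's value. These 4 were the CEBPA peaks at the starts of Itgb2 and Itgal, in Itgb2 intron 6 and in Itgax, each of which coincided with PU.1 in that line. Their matches are among those already counted for the PU.1 peaks, so this is not a separate observation. Of the CEBPA peaks of PU.1+, 38.5% overlapped a PU.1 peak of that line, against 22.7% of the list, so the list is an unlike comparison. The PU.1-type shares were not planned measures. In PU.1− it was in 1 of 30 (3.33%, 0.0844 to 17.2%), against 1.24%. Both in the central 200 bp and in the whole peak it was in 5 of 26 of PU.1+ (19.2%, 6.55 to 39.4%), against 3.69% and 5.42%. At these lengths it was in 3 of 30 of PU.1− (10.0%, 2.11 to 26.5%), against 2.91% and 4.43%, values within the interval. The Itgal match was the same in both lines, 34 bp from the CEBPA centre in PU.1+ and 37 bp in PU.1−. Only in PU.1+ did it count as within the central 80 bp.

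**Figure D5:**
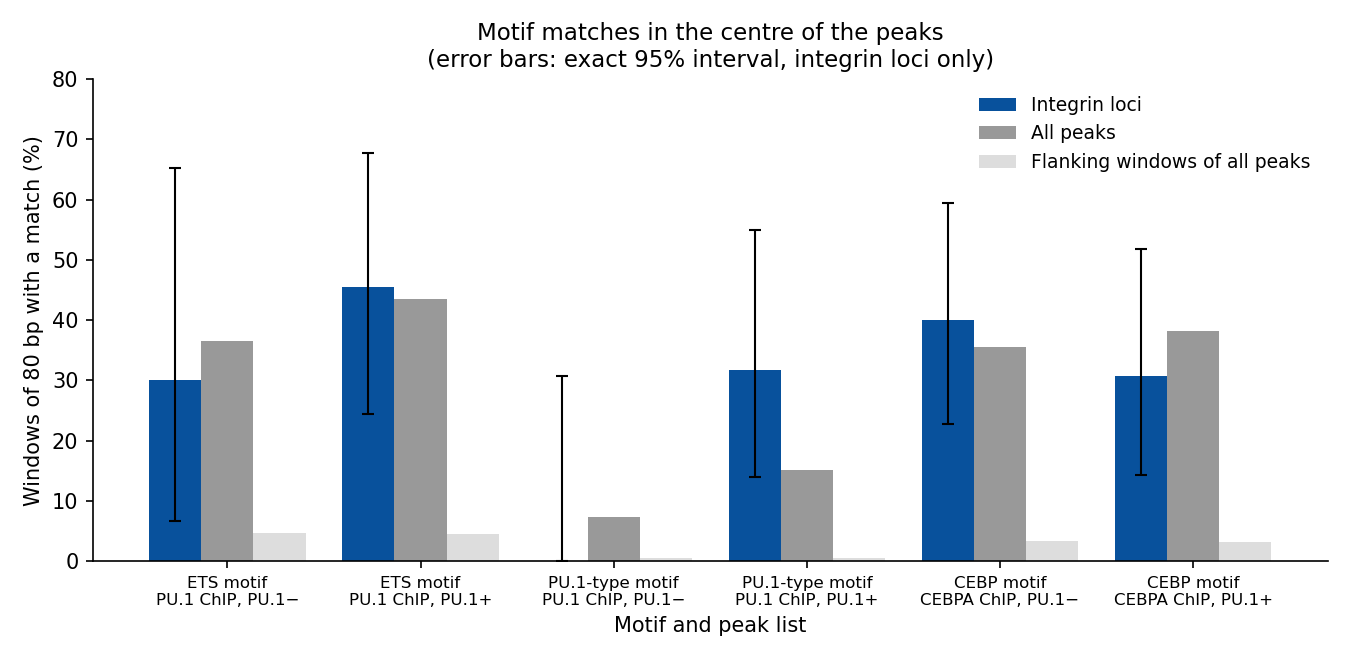
Percentage of 80 bp windows that held a motif (vertical axis) for each motif and peak list (horizontal axis), at the integrin loci, over all peaks and in windows 2000 bp away, with exact 95% intervals for the integrin loci. The intervals at the integrin loci include the value over all peaks in each of the 6 comparisons, and the PU.1-type share at this length was 0 of 10 in PU.1− and 31.8% in PU.1+, against 3 of 10 and 45.5% in whole peaks.

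Other genes of integrin biology were counted from 3 lists, with 36.7% of all protein-coding genes as the background for a new PU.1 peak. Of 17 other integrin subunits, 9 had one (52.9%), led by Itgb5 and Itga8 with 4 each and Itga5 and Itga2 with 2 each. Of 20 genes for integrin activation and adaptors, 14 had one (70.0%). Apbb1ip, which links the GTPase Rap1 to talin, had 6, the adaptor gene Fyb had 5, the GTPase gene Rap1b had 5 and the parvin gene Parvg had 4. Of 18 ligand genes, 10 had one (55.6%), led by F11r, which encodes a junctional adhesion molecule, and the cadherin gene Cdh1 with 3 each. Tgfb1 and Vcam1, the latter a ligand of alpha4 integrins, had 2 each. New CEBPA peaks lay at 6 of the 17 subunits, 7 of the 20 activation genes and 1 of the 18 ligands, against 11.4% of all genes. Neighbouring genes of a list can share a peak, and long genes have more room for peaks.

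The gene with the most new PU.1 peaks, Itgb2, was compared with all protein-coding genes by the Euclidean distance between the 4 peak counts (PU.1 2 and 7, CEBPA 11 and 8, in PU.1− and PU.1+). The nearest was the guanine deaminase gene Gda (2 and 6, 11 and 8, distance 1.0). The endocytic adaptor gene Ston2 (3 and 8, 11 and 8) and the fractalkine receptor gene Cx3cr1 (3 and 7, 10 and 8) followed at a distance of 1.41. These genes are longer than Itgb2, at 82139, 155379 and 168264 bp against 35457 bp.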

How the data were processed

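ChIP-Seq peaks of 4 libraries (PU.1 and CEBPA, PU.1− and PU.1+) were analysed after 2 h in OHT. Samples for H3K27Ac and for the IgG control were not used here. The authors aligned reads to mm10 and called peaks in each library. The submitters' processing notes name Bowtie2 2.0.6 and MACS2 2.0.10. The deposited lists hold chromosome, start and end only, with no count, score or p-value, and the calling threshold and the reason for the uniform width of 400 bp are not given in the sources used here. Depth per sample is therefore unknown. The integrin genes, the further gene lists and the motifs were chosen with earlier results of these data known.

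Gene bodies and transcript starts came from GENCODE M21, and introns were numbered in the transcript with the longest coding sequence. Sequence came from the RefSeq copy of GRCm38. Motifs were exact matches on both strands in the central 80 bp. ETS matches include PU.1-type and ETS1-type matches. Named genes were the 10 integrin genes with all their peaks, up to 4 genes of each further list, those with the most new PU.1 peaks, and the 3 genes with counts nearest to those of Itgb2. Alternatives were other windows around the gene, other overlap rules, other lengths of sequence and looser motifs, with longer sequence for the PU.1-type and RUNX motifs added after the data were seen. Overlap classes and planted motifs in simulated data were recovered at 100%. Python 3.11.15, numpy 2.4.6, scipy 1.17.1, pandas 2.3.3, pysam 0.24.0, samtools 1.23.1, bedtools 2.31.1 and matplotlib 3.10.9 were used.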

Additional observations from a re-analysis of the deposited data

How the results depend on the processing

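No paired analysis was possible because each antibody and line had 1 library. With 53 alternatives of the 10 counts and shares, 40 stayed within 1.5 times a count or within the interval of a share, and 13 moved. With the gene body alone in place of 20 kb flanks, new PU.1 peaks fell to 10, new CEBPA peaks to 3, shared CEBPA peaks to 12, PU.1 peaks called in PU.1− alone to 1 and CEBPA peaks called in PU.1− alone to 4. With flanks of 5 kb the last 2 were likewise 1 and 4, and with 50 kb CEBPA peaks called in PU.1− alone rose to 16. ETS matches in PU.1 peaks of PU.1+ rose to 68.2% in the central 200 bp and in the whole peak and to 95.5% for GGAA. CEBP matches in CEBPA peaks of PU.1+ rose to 57.7% in the whole peak and to 61.5% for TTGCNNNA. Other flanks and lengths change the amount of sequence by construction, and GGAA and TTGCNNNA loosen the motif over the same 80 bp. Of 12 alternatives of the PU.1-type and RUNX shares, added after the data were seen (central 200 bp and whole peak), 9 stayed within the interval of the 80 bp share and 3, all RUNX, moved. The number of integrin genes with a new PU.1 peak, 8, ranged from 7 to 9. Of 20 alternatives of the background shares, 4 moved, all with 50 kb flanks. Depth, peak height and the spread between libraries cannot be judged from coordinates, so a site listed in 1 line may lie just under the calling threshold in the other.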

Other observations

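RUNX matches (TGTGGT or TGCGGT, either strand, central 80 bp), a motif of RUNX1, which acts with PU.1 and CEBPA in myeloid cells, were in 7 of 26 CEBPA peaks of PU.1+ at the integrin genes (26.9%, 11.6 to 47.8%), against 12.7% of that list, and in 7 of 30 of PU.1− (23.3%, 9.93 to 42.3%), against 13.5%. In the PU.1 peaks they were in 2 of 22 of PU.1+ (9.09%), against 11.5%, and in 1 of 10 of PU.1− (10.0%), against 15.9%. At this length the intervals for CEBPA include the values of the lists. In the central 200 bp the CEBPA share was 12 of 26 in PU.1+ (46.2%, 26.6 to 66.6%), against 26.7%, which the interval includes. In PU.1− it was 14 of 30 (46.7%, 28.3 to 65.7%), against 27.9%, which lies below the interval. In the whole 400 bp the CEBPA shares were 17 of 26 in PU.1+ (65.4%, 44.3 to 82.8%), against 39.6%, and 19 of 30 in PU.1− (63.3%, 43.9 to 80.1%), against 41.0%, and both intervals lie above the list's value. The lines share 21 of these CEBPA sites, so the values are not independent, and the longer lengths were looked at after the 80 bp values were seen. The PU.1 peak of PU.1+ in intron 1 of Itgb3, chosen after its values were seen, which held no ETS match, held 2 RUNX matches in its central 80 bp, the nearer 4 bp from its centre.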
